A study of Mus musculus with 9 samples.

Results

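The genes described here are the matrix metalloproteinases (Mmp), the ADAM and ADAMTS proteases, the ADAMTS-like proteins (Adamtsl) and the tissue inhibitors of metalloproteinases (Timp) of the mouse. Members were taken by name: every gene whose symbol is Mmp, Adam, Adamts, Adamtsl or Timp followed by a number, with or without a closing letter for gene copies. Of 19814 genes with a named probe on the arrays, 83 were members: 23 Mmp, 34 Adam, 18 Adamts, 4 Adamtsl and 4 Timp genes. Adamts2 had a value only in the gene-level table, and Adamtsl5 had no named probe here.

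RNA of 3 kinds of mouse cell was read on Illumina bead arrays, with 3 arrays a group. YfpCM are cardiomyocytes carrying yellow fluorescent protein (YFP). By the design text they were obtained by flow sorting of apical left ventricle tissue at day 28 after a single subcutaneous dose of 200 mg/kg isoproterenol, which overstimulates beta-adrenergic receptors and damages heart muscle. The YFP mark came from Cre delivered by a lentivirus under c-kit control, so that it depends on where that virus went and where the promoter was active. CMa are normal adult cardiomyocytes. eCSC, endogenous cardiac stem cells in the submitters' words, were selected as c-kit-positive and CD45-negative and were taken from culture at passage 4. All 3 groups are labelled with the reporter allele Gt(ROSA)26Sortm1(EYFP)Cos, of a B6.129X1 stock, and the strain background C57BL/6J. The YfpCM titles speak of myocytes formed in vitro, at odds with the design text, and the text on isoproterenol is attached to each of the 9 samples. Neither ages nor the animals or cultures behind each replicate are given, so that the p-values rest on a spread between arrays that could be technical.

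Matrix metalloproteinases are zinc enzymes that cut collagens and other proteins of the extracellular matrix; most are secreted as inactive precursors, and the membrane-type members sit on the cell surface. ADAM proteins are membrane-bound relatives, many of which release the outer part of receptors and growth factors, while ADAMTS proteins are secreted and cut proteoglycans, procollagens and other matrix components. TIMPs bind these enzymes and block them. In the heart, fibroblasts, endothelial cells, leukocytes and muscle cells all can make members of these families, and matrix turnover after injury involves them.

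The promoters of 6 members are shown first: 4 whose levels are described at length below, and Mmp1a and Mmp13 from a run of Mmp genes on chromosome 9 that was mostly undetected. The RefSeq promoter table of the build GRCm38.p6 held 57 promoters of 52 of the 83 members; Mmp2 had no entry. Each runs from 250 bases before the start of the gene to 50 after it, read 5′ to 3′ on the gene's strand. Capitals mark 3 kinds of motif: TGAGTCA or its reverse complement TGACTCA (AP-1), GGGCGG or its reverse complement CCGCCC (GC box), and TATAAA on the gene's strand only (TATA box). AP-1 and TATA motifs did not overlap in these sequences.
Mmp14 promoter, chr14:54431348-54431647, plus strand: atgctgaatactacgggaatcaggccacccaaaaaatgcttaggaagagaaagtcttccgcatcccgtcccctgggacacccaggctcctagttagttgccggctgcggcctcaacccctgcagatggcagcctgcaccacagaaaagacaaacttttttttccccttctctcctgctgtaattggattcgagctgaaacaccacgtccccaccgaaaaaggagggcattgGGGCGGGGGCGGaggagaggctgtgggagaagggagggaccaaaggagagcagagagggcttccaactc
Adamts1 promoter, chr16:85803064-85803363, minus strand: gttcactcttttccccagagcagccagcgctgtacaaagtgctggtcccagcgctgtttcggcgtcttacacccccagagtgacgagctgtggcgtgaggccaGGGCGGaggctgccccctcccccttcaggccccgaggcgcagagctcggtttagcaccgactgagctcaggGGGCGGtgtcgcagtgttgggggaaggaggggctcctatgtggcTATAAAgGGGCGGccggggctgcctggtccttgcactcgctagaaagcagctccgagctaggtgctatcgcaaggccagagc
Timp1 promoter, chrX:20869916-20870215, plus strand: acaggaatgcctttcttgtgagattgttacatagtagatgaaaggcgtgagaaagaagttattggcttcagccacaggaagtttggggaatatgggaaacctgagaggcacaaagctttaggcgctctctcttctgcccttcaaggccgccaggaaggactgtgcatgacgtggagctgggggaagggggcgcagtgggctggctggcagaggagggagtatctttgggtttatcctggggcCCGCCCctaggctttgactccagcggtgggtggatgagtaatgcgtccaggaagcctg
Timp4 promoter, chr6:115252156-115252455, minus strand: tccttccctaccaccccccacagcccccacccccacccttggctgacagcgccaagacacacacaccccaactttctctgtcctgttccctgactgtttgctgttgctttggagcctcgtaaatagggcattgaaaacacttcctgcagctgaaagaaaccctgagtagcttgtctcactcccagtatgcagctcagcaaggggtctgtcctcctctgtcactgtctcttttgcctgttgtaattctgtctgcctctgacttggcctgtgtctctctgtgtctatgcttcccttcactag
Mmp1a promoter, chr9:7463891-7464190, plus strand: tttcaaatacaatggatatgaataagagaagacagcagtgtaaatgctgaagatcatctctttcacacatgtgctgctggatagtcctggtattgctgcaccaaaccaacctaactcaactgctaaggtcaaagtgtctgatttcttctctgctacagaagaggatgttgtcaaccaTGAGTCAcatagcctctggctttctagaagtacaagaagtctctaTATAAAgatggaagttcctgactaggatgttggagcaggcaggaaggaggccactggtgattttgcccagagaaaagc
Mmp13 promoter, chr9:7272264-7272563, plus strand: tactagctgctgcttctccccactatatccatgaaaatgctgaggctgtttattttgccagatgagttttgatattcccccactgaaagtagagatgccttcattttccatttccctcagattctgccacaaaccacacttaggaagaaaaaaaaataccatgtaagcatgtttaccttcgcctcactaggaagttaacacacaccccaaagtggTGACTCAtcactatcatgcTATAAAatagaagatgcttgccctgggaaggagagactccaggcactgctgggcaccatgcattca

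Of the promoters above, that of Mmp14 held 2 GC boxes, that of Adamts1 held 3 GC boxes and a TATA box 32 bases before the start, that of Timp1 held 1 GC box, and that of Timp4 held none of the motifs. The Mmp1a promoter carried AP-1 73 bases and TATAAA 28 bases before the start, and the Mmp13 promoter 35 and 16 bases before it. An AP-1 motif stood in 17.5% of the members' promoters, against 5.2% of all 32851 promoters of the same length, a TATA box in 21.1% against 8.32%, and a GC box in 43.9% against 35.7%. Among the 27 promoters of members that entered the tests below, the shares were 7.41% for AP-1, 7.41% for the TATA box and 63% for the GC box. The 10 members with an AP-1 motif were Adam19, Adam1b, Adam29, Mmp1a, Mmp1b, Mmp3, Mmp7, Mmp10, Mmp12 and Mmp13. The 7 Mmp genes among them all lie in a run of 10 neighbouring Mmp genes, each with a TATA box in the same promoter, and none of the 12 promoters of that run held a GC box. These matches describe letters in a window and were not tested as sites.

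The identity of the cells was checked with marker genes. Of 9 cardiomyocyte markers, such as Myh6, Actc1 and Ryr2, 9 were detected in YfpCM, 9 in CMa and 1 (Atp2a2) in eCSC. Kit, the gene of c-kit, was undetected on all 3 eCSC arrays and detected on all 3 YfpCM arrays. Markers of other cell types were present beside those of heart muscle. The summed normalized signal of 11 fibroblast markers was 7857 to 10255 in YfpCM, 1923 to 2960 in CMa and 927 to 973 in eCSC, with 9, 5 and 6 markers detected. Bright genes weigh most in such sums: Dcn averaged 10.96 in log2 signal in CMa and 4.71 in eCSC. Of 10 fibroblast markers tested, 4 were higher and 5 lower in CMa than in eCSC, with a median log2 difference of -0.71. The order of the CMa and eCSC sums therefore does not hold for the markers as a set. By the probe read, Lum, Postn, Tcf21 and Dpt were undetected on every eCSC array, and Col3a1, Postn, Ddr2 and Gsn on every CMa array. For 10 endothelial markers the sums were 14783 to 14825 in YfpCM, 5030 to 6477 in CMa and 275 to 295 in eCSC (9, 10 and 1 detected). Sums of 13 macrophage markers were 1573 to 1898 in YfpCM, 727 to 1035 in CMa and 436 to 547 in eCSC, and those of 8 neutrophil markers were 1885 to 4712, 227 to 260 and 288 to 925 in the same order. Sums of 7 mesothelial and epicardial markers were 695 to 2395 in YfpCM, 145 to 164 in CMa and 439 to 620 in eCSC, and those of 9 smooth muscle and pericyte markers 10539 to 11241, 5400 to 7905 and 226 to 289. Sums of 7 mast cell markers were 1589 to 2276 in YfpCM, 198 to 236 in CMa and 172 to 202 in eCSC (5, 1 and 1 detected). The part of these cells in the results below was not tested; in such bulk samples fewer cells of a type and less RNA per cell cannot be told apart. YfpCM replicate 2 stood apart from the other YfpCM arrays: its mean correlation with the CMa arrays over the genes tested was 0.923, against 0.878 and 0.882 for replicates 1 and 3. It had the lowest sums of fibroblast, macrophage, neutrophil, mast cell and mesothelial markers of the YfpCM arrays, and the highest sum of cardiomyocyte markers. Endothelial sums were nearly equal on these arrays, and its smooth muscle and pericyte sum was not the lowest.

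Each array detected between 15326 and 19048 of 45281 probes. A member counted as detected in a group when at least 1 of its probes had a detection p-value under 0.05 on all 3 arrays. By that rule 32 of 83 members (38.6%) were detected in YfpCM, 21 (25.3%) in CMa and 20 (24.1%) in eCSC, against 46.3%, 41.1% and 42.1% of all genes with a probe. In total 37 members were detected somewhere and 14 in every group. YfpCM alone had 10, CMa alone 2 (Adam11 and Adam22), and eCSC alone 3 (Mmp9, Mmp28 and Adam8). The 10 were Mmp17, Adam1a, Adam20, Adam23, Adam32, Adamts5, Adamts6, Adamts12, Adamts15 and Adamts19. YfpCM and CMa but not eCSC had Mmp15, Mmp23, Adamts7, Adamts9 and Timp4, and YfpCM and eCSC but not CMa had Mmp16, Adamts4 and Adamtsl3. Detection near the limit can differ by little: with a limit of 0.01 the counts were 26 in YfpCM, 20 in CMa and 15 in eCSC.

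**Figure D1:**
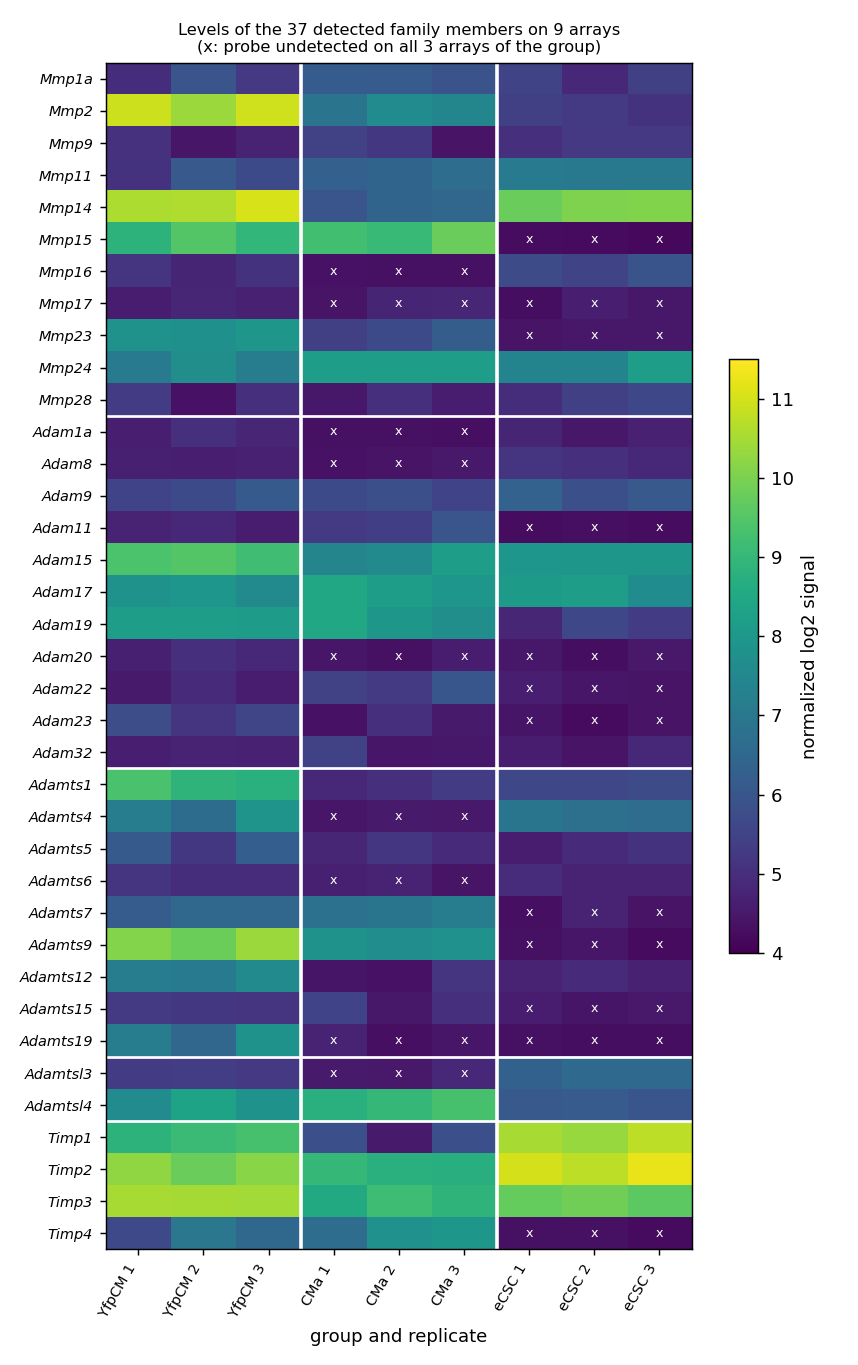
Normalized log2 signal (colour) of the 37 detected members (rows, by family) on the 9 arrays (columns, by group and replicate); x marks groups in which the probe shown was undetected on all 3 arrays. Mmp2, Adamts1, Adamts9, Adamts12 and Adamts19 are highest in the YfpCM columns, Timp1 and Timp2 in the eCSC columns, and Adamtsl4 in the CMa columns.

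The other 46 members with a probe met the rule in no group. They were 12 Mmp, 23 Adam, 9 Adamts and 2 Adamtsl genes. In the run of 10 Mmp genes named above, only Mmp1a was detected. Mmp3, Mmp7, Mmp8, Mmp10, Mmp12, Mmp13, Mmp20, Mmp27 and Mmp1b were not. The brightest probe of Mmp13, a collagenase, still passed the limit on 2 of 3 YfpCM arrays, 1 of 3 CMa arrays and 2 of 3 eCSC arrays. A second Mmp13 probe passed it on 2, 2 and 1 arrays in the same order. This run holds the stromelysins Mmp3 and Mmp10, the neutrophil collagenase Mmp8 and the macrophage elastase Mmp12. Outside it, Mmp19, Mmp21 and Mmp25 were undetected. Of the 34 Adam genes 11 were detected. Those missing included Adam2 and Adam3, which act on sperm, and most of the Adam genes that stand in runs on chromosome 8: 0 of 4 (Adam26a, Adam26b, Adam34 and Adam34l), 1 of 4 (Adam20, beside Adam24, Adam25 and Adam39) and 2 of 5 (Adam9 and Adam32, beside Adam3, Adam5 and Adam18). Adam10, a widely expressed sheddase, was undetected on every array by both of its probes, and Adam12, Adam28 and Adam33 also missed the rule. Also undetected were Adam1b, Adam4, Adam6a, Adam6b, Adam7, Adam21, Adam29 and Adam30, together with Adamts3, Adamts8, Adamts10, Adamts13, Adamts14, Adamts16, Adamts17, Adamts18, Adamts20, Adamtsl1 and Adamtsl2. An undetected probe bounds the signal of that probe and does not show that the transcript is absent.

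The 37 detected members entered the comparisons, read by the brightest detected probe of each and tested with limma among 10276 genes; adjusted p-values are Benjamini-Hochberg values over all of these, with a threshold of 0.05. The 37 had to be detected in at least 1 group to be tested, so that counts over them do not describe all members. Of them, 10 were tested only because YfpCM detected them, 2 only through CMa and 3 only through eCSC. The counts and medians below therefore restate the filter in part, in favour of YfpCM. Between YfpCM and CMa, 18 of 37 were higher in YfpCM and 8 lower, where 23% and 27.7% of all genes tested were called (50.7% in either direction). Between YfpCM and eCSC, 19 were higher in YfpCM and 5 lower, against a background of 34.5% and 38.6% (73% in either direction). Between CMa and eCSC, 13 were higher in CMa and 11 lower, against 35.9% and 39.4% (75.3% in either direction). The median log2 differences of the members were 0.39, 0.45 and 0.10 in these comparisons, beside -0.08, -0.10 and -0.05 over all genes. The groups did not overlap over the arrays for 27 members between YfpCM and CMa (58.8% of all genes), 25 between YfpCM and eCSC (76.1%) and 23 between CMa and eCSC (77.8%). The split depended on the scaling: with arrays scaled to equal medians it was 15 higher and 1 lower between YfpCM and CMa, 16 and 7 between YfpCM and eCSC, and 10 and 14 between CMa and eCSC. That scaling also moved the median difference of all genes to 0.16, -0.49 and -0.67, and the share of all calls that were higher was 73.3% with it against 45.4% as reported between YfpCM and CMa, 35% against 47.2% between YfpCM and eCSC, and 29.5% against 47.6% between CMa and eCSC. Without YfpCM replicate 2, the array set apart above, 16 members were higher and 8 lower between YfpCM and CMa, and 18 and 5 between YfpCM and eCSC. The comparisons share groups of arrays and are not independent of each other. Sizes, bounds included, hold for the background-corrected scale: without background correction 54 of the 74 called differences were smaller by over 1.5 times, and in the series matrix 58 were.

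**Figure D2:**
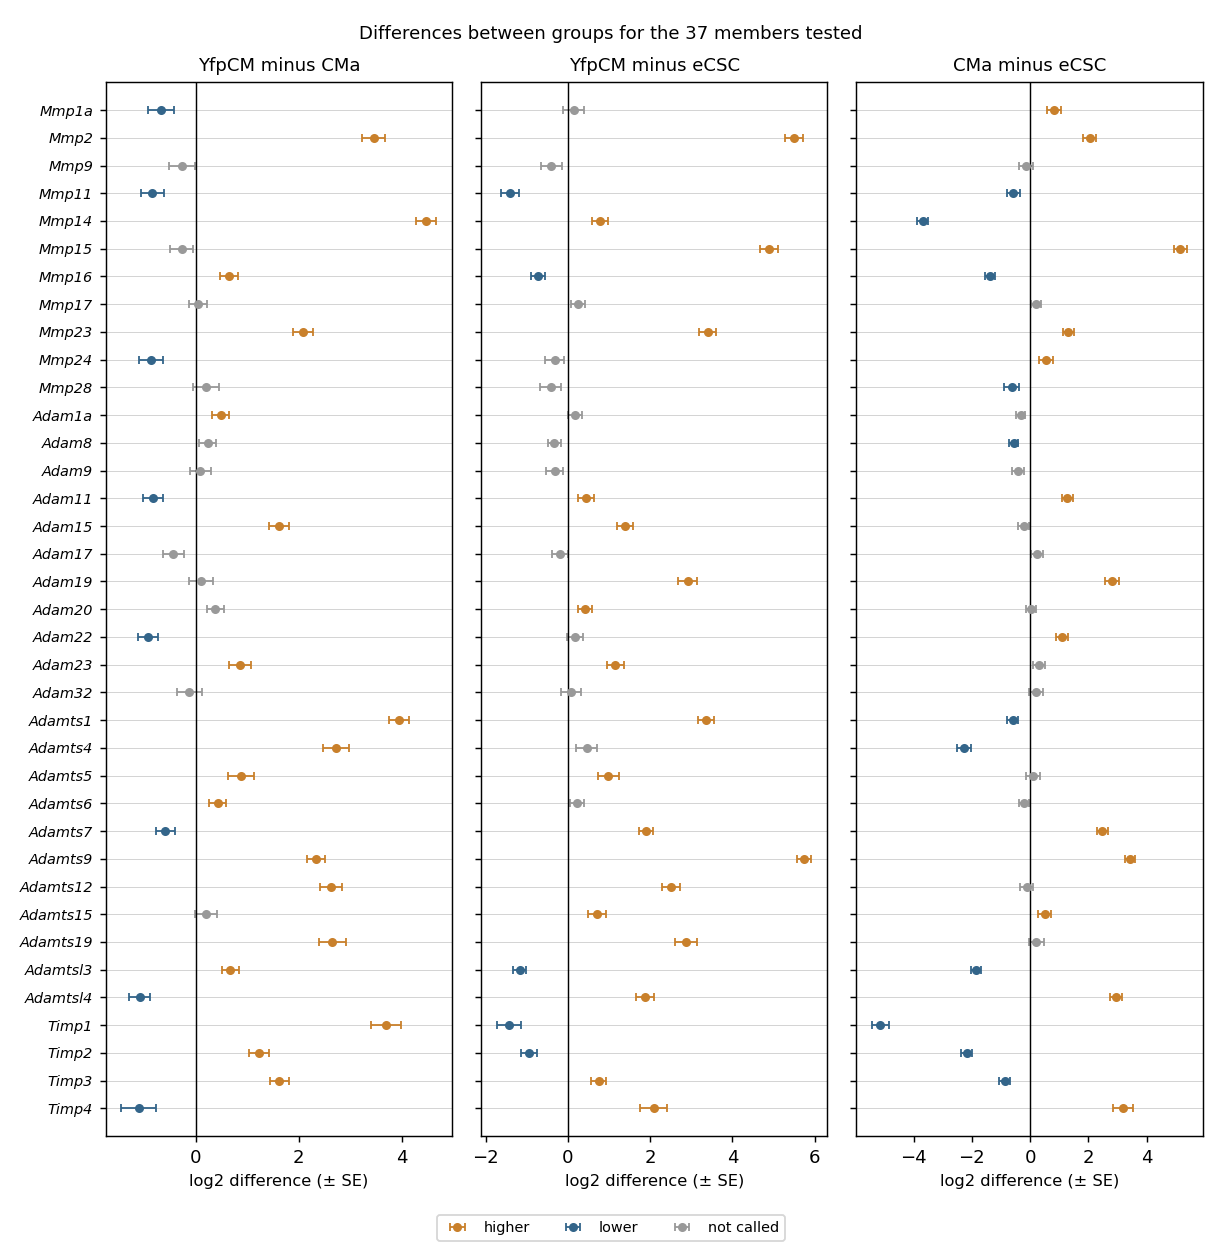
Log2 difference with its standard error for the 37 members tested, in YfpCM minus CMa, YfpCM minus eCSC and CMa minus eCSC; the panels have different ranges, and colour marks members called higher, called lower or not called. In the first panel Mmp14, Adamts1, Timp1 and Mmp2 lie farthest to the right, between 3.45 and 4.47.

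Among the secreted metalloproteinases, Mmp2, the gelatinase A that cuts denatured collagen and type IV collagen, separated the 3 groups. Its normalized log2 signal was 10.93, 10.38 and 10.96 in YfpCM, 6.87, 7.61 and 7.45 in CMa and 5.41, 5.26 and 5.11 in eCSC. The groups did not overlap, with YfpCM highest on every array. Mmp2 was 10.9-fold higher in YfpCM than in CMa (log2 difference 3.45 ± 0.22 SE, limma adjusted p = 3.71e-08) and 45.1-fold higher than in eCSC (adjusted p = 2.7e-11), and it was 4.13-fold higher in CMa than in eCSC (adjusted p = 9.01e-07). Mmp11, the stromelysin-3 known from stromal cells, ran the other way: it stood at 5.10, 6.10 and 5.68 in YfpCM, 6.31, 6.41 and 6.68 in CMa and 7.06, 7.03 and 7.04 in eCSC. It was lower in YfpCM than in eCSC by 1.42 on the log2 scale (a difference of -1.42 ± 0.22 SE, adjusted p = 5.16e-05), and its smaller differences between YfpCM and CMa (-0.84) and between CMa and eCSC (-0.57) lost their call under other settings. Mmp9, the gelatinase B of neutrophils and macrophages, was read at 4.46 to 5.08 in YfpCM, 4.39 to 5.48 in CMa and 5.02 to 5.24 in eCSC and was called in no comparison, with detection on 2, 2 and 3 of 3 arrays. Mmp28, an epilysin, was called only as lower in CMa than in eCSC (-0.64; detected on 1 CMa array), a call lost with other settings. Mmp1a, a rodent relative of the interstitial collagenase, was at 5.91 to 6.18 in CMa, against 4.83 to 5.55 in eCSC, a difference of 0.82 ± 0.25 SE that was lost with median scaling and without eCSC replicate 2.

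The membrane-type metalloproteinases divided the groups in different ways. Mmp14, which on the cell surface activates the precursor of Mmp2 and cuts fibrillar collagen, stood at 10.59, 10.62 and 11.06 in YfpCM, 5.98, 6.40 and 6.48 in CMa and 9.78, 10.06 and 10.08 in eCSC. The CMa arrays were low and the other 2 groups high. The gene was 22.1-fold higher in YfpCM than in CMa (4.47 ± 0.20 SE, adjusted p = 1.54e-09) and 12.9-fold lower in CMa than in eCSC (-3.69 ± 0.20 SE, adjusted p = 4.21e-10). Between YfpCM and eCSC the difference of 0.78 ± 0.20 SE was called as reported, but it was 0.05 and not called with median scaling. A second Mmp14 probe was undetected on all 9 arrays, with a mean of 4.28 in YfpCM. Mmp15, another membrane-type enzyme, had the opposite division: 8.84, 9.49 and 8.98 in YfpCM, 9.24, 9.08 and 9.80 in CMa and 4.26, 4.21 and 4.18 in eCSC, where no array detected it. Against that undetected level only a bound can be given, taken on each array from the dimmest probe that passed detection there or, if brighter, the probe itself: Mmp15 was at least 20.5-fold higher in YfpCM than in eCSC (adjusted p = 7.72e-11) and at least 24.7-fold higher in CMa than in eCSC (adjusted p = 3.31e-11). Between YfpCM and CMa its arrays overlapped and it was not called (adjusted p = 0.314).

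Mmp23, a short membrane-anchored member, stood at 7.84, 7.76 and 7.97 in YfpCM, 5.43, 5.68 and 6.21 in CMa and 4.41, 4.48 and 4.49 in eCSC, where it was undetected. It was 4.23-fold higher in YfpCM than in CMa (adjusted p = 1.62e-06), at least 8.64-fold higher in YfpCM than in eCSC (adjusted p = 1.45e-09) and at least 2.04-fold higher in CMa than in eCSC. Mmp16 was dim, with 4.77 to 5.14 in YfpCM, 4.33 to 4.36 in CMa, where it was undetected, and 5.53 to 5.96 in eCSC. It was lower in YfpCM than in eCSC (-0.73 ± 0.17 SE, adjusted p = 0.00163) and at least 1.83-fold lower in CMa than in eCSC (adjusted p = 4.47e-06); its second detected probe gave the same directions. Mmp24 stood at 7.11 to 7.70 in YfpCM, 8.18 to 8.20 in CMa and 7.38 to 8.18 in eCSC. It was lower in YfpCM than in CMa (-0.87 ± 0.23 SE, adjusted p = 0.00627), a call lost with median scaling. Its call as higher in CMa than in eCSC (0.54) turned to -0.39 with that scaling and was not kept in 10 of 16 alternatives. The second detected Mmp24 probe ran the other way there, with means of 5.18 in CMa and 5.35 in eCSC. Mmp17 stood at 4.61 to 4.80 in YfpCM, 4.41 to 4.80 in CMa and 4.29 to 4.63 in eCSC and was called in no comparison.

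**Figure D3:**
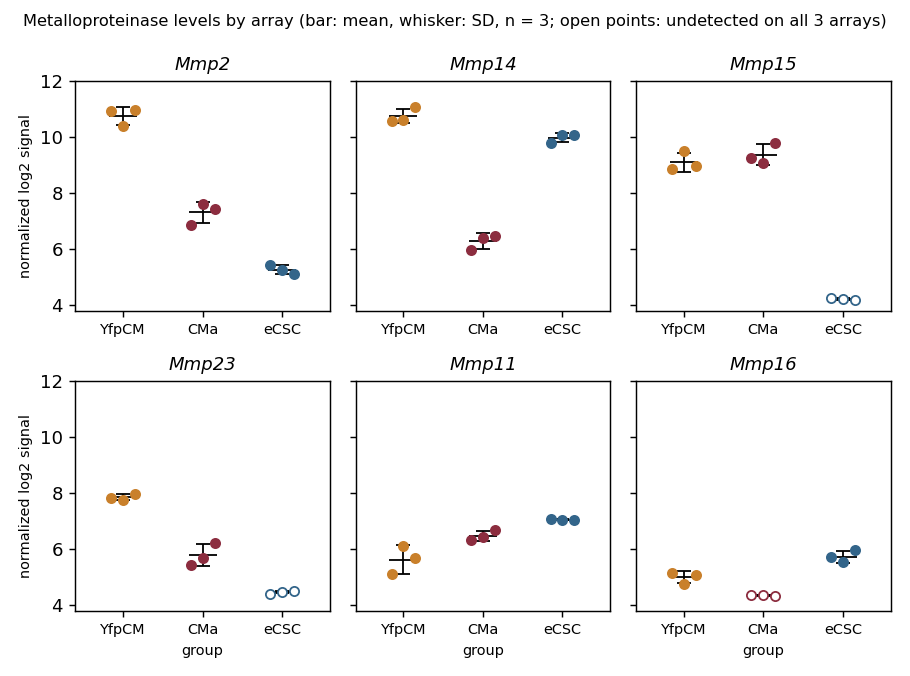
Normalized log2 signal of 6 metalloproteinase genes on each array, with the mean (bar) and SD (whisker) of the 3 arrays of YfpCM, CMa and eCSC; open points mark groups with the probe undetected on all 3 arrays. Mmp2 falls apart into 3 levels, Mmp14 is low in CMa only and Mmp15 is low in eCSC only.

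Of the 11 ADAM genes tested, 3 were higher and 2 lower in YfpCM than in CMa, 5 higher and 0 lower in YfpCM than in eCSC, and 3 higher and 1 lower in CMa than in eCSC. These counts of 5, 5 and 4 called stand beside 50.7%, 73% and 75.3% of all genes called in either direction. They restate the filter in part, since 4 genes (Adam1a, Adam20, Adam23 and Adam32) were tested only because YfpCM detected them. Likewise 2 (Adam11 and Adam22) were tested only through CMa and 1 (Adam8) only through eCSC. Adam19, whose loss in mice disturbs heart valve and septum formation, was the ADAM gene with the widest gap between YfpCM and eCSC. It stood at 8.16, 8.21 and 8.11 in YfpCM, 8.47, 7.98 and 7.70 in CMa and 4.80, 5.64 and 5.30 in eCSC. Both cardiomyocyte groups lay above every eCSC array, by 2.91 ± 0.23 SE for YfpCM (adjusted p = 4.92e-08) and 2.80 ± 0.23 SE for CMa (adjusted p = 5.31e-08). Between YfpCM and CMa it was not called (adjusted p = 0.726). Adam15, a member with a disintegrin domain that binds integrins, was at 9.38, 9.48 and 9.19 in YfpCM, 7.42, 7.59 and 8.20 in CMa and 7.94, 7.97 and 7.97 in eCSC. YfpCM stood above both, by 1.62 ± 0.20 SE against CMa (adjusted p = 2e-05) and 1.39 ± 0.20 SE against eCSC (adjusted p = 2.12e-05), while CMa and eCSC overlapped. The other Adam15 probes met the detection rule in no group.

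Adam17, the sheddase that releases tumour necrosis factor and ligands of the epidermal growth factor receptor, was detected on all 9 arrays and called in no comparison. Its levels were 7.60 to 7.93 in YfpCM, 7.94 to 8.49 in CMa and 7.65 to 8.20 in eCSC. Adam9, likewise detected on all 9 arrays, was at 5.50 to 6.12 in YfpCM, 5.50 to 5.84 in CMa and 5.82 to 6.36 in eCSC and was called nowhere. Adam11, Adam22 and Adam23, ADAMs that lack an active protease site and are known for roles at synapses, were dim. Adam11 was at 4.60 to 4.84 in YfpCM, 5.28 to 5.97 in CMa and 4.24 to 4.30 in eCSC, and Adam22 at 4.53 to 4.91, 5.29 to 5.99 and 4.40 to 4.63 in the same order. Both were lower in YfpCM than in CMa (-0.83 and -0.92, adjusted p = 0.00275 and 0.00188) and lost that call with median scaling. In eCSC both were undetected. Adam11 was at least 1.74-fold higher in CMa than in eCSC (limma adjusted p = 2.71e-05) and Adam22 at least 1.79-fold (limma adjusted p = 0.000175). These calls of CMa against eCSC were kept under every alternative that measured them. Adam23 was at 5.17 to 5.77 in YfpCM, 4.37 to 5.01 in CMa and 4.23 to 4.42 in eCSC and was higher in YfpCM than in CMa (0.86 ± 0.20 SE, adjusted p = 0.00329). Adam8, a leukocyte ADAM, was called only as lower in CMa than in eCSC (-0.57, or at least 1.1-fold). Adam1a, Adam20 and Adam32 stayed between 4.29 and 5.49 on every array; of these Adam1a was called higher in YfpCM than in CMa, where it was undetected and no fold can be given, and Adam20 was at least 1.07-fold higher in YfpCM than in eCSC. Both calls were lost under several settings.

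All 9 ADAMTS genes tested were detected in YfpCM, and 5 of them (Adamts5, Adamts6, Adamts12, Adamts15 and Adamts19) were tested only because YfpCM detected them. The counts in favour of YfpCM therefore restate the filter in part: 7 were higher and 1 lower in YfpCM than in CMa, and 7 higher and 0 lower in YfpCM than in eCSC. In CMa against eCSC 3 were higher and 2 lower. Over all genes tested the shares called higher and lower were 23% and 27.7%, 34.5% and 38.6%, and 35.9% and 39.4% in these comparisons. Adamts1, a protease of the proteoglycans versican and aggrecan, stood at 9.36, 8.88 and 8.78 in YfpCM, 4.86, 5.02 and 5.31 in CMa and 5.62, 5.59 and 5.75 in eCSC. YfpCM lay above both other groups on every array: the gene was 15.4-fold higher than in CMa (3.94 ± 0.19 SE, adjusted p = 3.11e-09) and 10.2-fold higher than in eCSC (3.35 ± 0.19 SE, adjusted p = 1.27e-09). Its 2 other detected probes were undetected in CMa and had means of 6.34 in YfpCM, 4.33 in CMa and 4.72 in eCSC, and of 5.09, 4.37 and 4.45 in the same order. The lower level in CMa than in eCSC (-0.59) lost its call without background correction, with the mean of its probes, in the series matrix and without CMa replicate 1.

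Adamts9, which also cuts versican and is needed for heart development in mice, stood at 10.10, 9.81 and 10.36 in YfpCM, 7.81, 7.69 and 7.79 in CMa and 4.35, 4.45 and 4.23 in eCSC. No eCSC array detected it. It was 5.02-fold higher in YfpCM than in CMa (adjusted p = 1.69e-07), at least 40.7-fold higher in YfpCM than in eCSC (adjusted p = 1.29e-12) and at least 8.11-fold higher in CMa than in eCSC (adjusted p = 2.83e-10). In log2 units its differences from eCSC were 5.75 in YfpCM and 3.42 in CMa, against lowest values of 3.50 and 1.57 among the alternatives, so that the bounds above do not carry over to every processing. Its other detected probe was dimmer and ran the same way, with means of 5.78 in YfpCM, 4.78 in CMa and 4.32 in eCSC. Adamts12 stood at 7.14, 7.09 and 7.60 in YfpCM, 4.43, 4.37 and 5.16 in CMa and 4.74, 4.89 and 4.69 in eCSC. It was higher in YfpCM than in CMa by 2.63 ± 0.22 SE (adjusted p = 5.36e-07; detected on 1 of 3 CMa arrays) and than in eCSC by 2.51 ± 0.22 SE (adjusted p = 1.47e-07; detected on 2 of 3 eCSC arrays). The other Adamts12 probes met the detection rule in no group, with means of 4.43 and 4.55 in YfpCM.

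Adamts19 was detected only in YfpCM, at 7.16, 6.48 and 7.82, with 4.74, 4.30 and 4.46 in CMa and 4.32, 4.27 and 4.28 in eCSC, undetected on all 6 of those arrays. It was at least 4.9-fold higher in YfpCM than in CMa (adjusted p = 2.83e-06) and at least 5.31-fold higher than in eCSC (adjusted p = 2.43e-07). These bounds rest on the brighter probe. The other Adamts19 probe was undetected on every array, with means of 4.24 in YfpCM, 4.24 in CMa and 4.18 in eCSC. Among the aggrecan-cutting members, Adamts4 stood at 7.15, 6.65 and 7.90 in YfpCM, 4.46, 4.55 and 4.53 in CMa, where it was undetected, and 6.90, 6.77 and 6.67 in eCSC. It was at least 5.18-fold higher in YfpCM than in CMa (adjusted p = 1.11e-06) and at least 3.78-fold lower in CMa than in eCSC (adjusted p = 9.89e-07), while YfpCM and eCSC overlapped (adjusted p = 0.11). Adamts5 was dimmer, at 6.12, 5.22 and 6.23 in YfpCM, 4.80, 5.19 and 4.92 in CMa and 4.58, 4.92 and 5.11 in eCSC. YfpCM replicate 2 lay only just above the highest CMa array, and the call between YfpCM and CMa (0.89 ± 0.25 SE, adjusted p = 0.00899) was lost without YfpCM replicate 3.

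Adamts7, a protease of cartilage oligomeric matrix protein, was the ADAMTS gene lower in YfpCM than in CMa. It stood at 6.18, 6.51 and 6.47 in YfpCM, 6.83, 6.90 and 7.16 in CMa and 4.31, 4.75 and 4.40 in eCSC, where it was undetected. Both cardiomyocyte groups were above eCSC, YfpCM at least 3.11-fold (adjusted p = 3.41e-07) and CMa at least 4.66-fold (adjusted p = 1.4e-08), while the lower level in YfpCM than in CMa (-0.58) was lost with median scaling and without YfpCM replicate 1 or CMa replicate 3. Adamts6 and Adamts15 stayed between 4.40 and 5.52 on every array. Adamts15 was at least 1.39-fold higher in YfpCM than in eCSC (adjusted p = 0.00947), a call lost without background correction; its call between CMa and eCSC and that of Adamts6 between YfpCM and CMa were lost under several settings. Adamts2, the procollagen N-proteinase, has only a raw signal from the authors' gene-level table: 422.4, 262.3 and 430.3 in YfpCM, 119.4, 124.1 and 119.5 in CMa and 223.8, 218.8 and 387.8 in eCSC, detected on 3, 2 and 3 arrays and not tested here.

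The ADAMTS-like proteins have no protease domain and bind the matrix. Adamtsl4, which associates with fibrillin microfibrils, stood at 7.63, 8.36 and 7.86 in YfpCM, 8.76, 9.01 and 9.33 in CMa and 6.09, 6.17 and 5.97 in eCSC. The 3 groups did not overlap: it was lower in YfpCM than in CMa (-1.08 ± 0.21 SE, adjusted p = 0.000791), higher in YfpCM than in eCSC (1.87 ± 0.21 SE, adjusted p = 1.74e-06) and higher in CMa than in eCSC (2.96 ± 0.21 SE, adjusted p = 9.83e-09). Adamtsl3 was highest in eCSC, with 5.30, 5.35 and 5.26 in YfpCM, 4.53, 4.50 and 4.85 in CMa, where it was undetected, and 6.32, 6.55 and 6.57 in eCSC. It was lower in YfpCM than in eCSC (-1.18 ± 0.17 SE, adjusted p = 1.73e-05) and at least 3.07-fold lower in CMa than in eCSC (adjusted p = 1.23e-07).

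**Figure D4:**
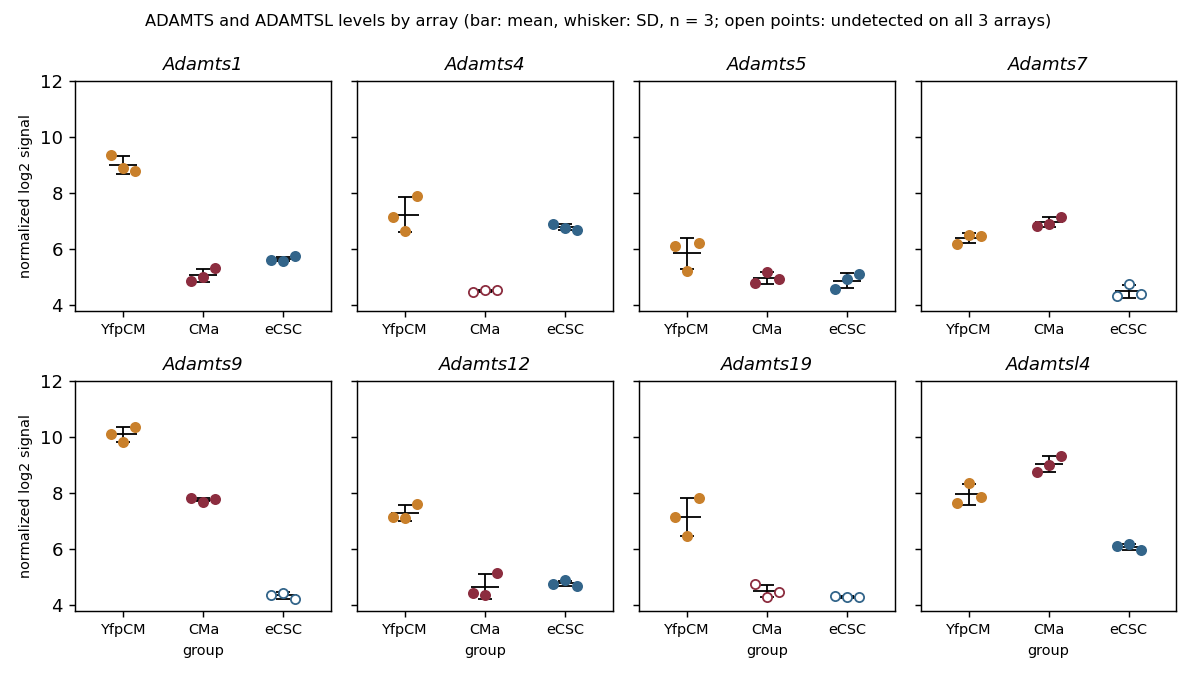
Normalized log2 signal of 7 ADAMTS genes and Adamtsl4 on each array, with the mean (bar) and SD (whisker) of the 3 arrays of YfpCM, CMa and eCSC; open points mark groups with the probe undetected on all 3 arrays. Adamts1, Adamts9, Adamts12 and Adamts19 are highest in YfpCM, whereas Adamtsl4 is highest in CMa.

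All 4 inhibitors were measured, and they did not move together. Timp1, an inhibitor that many cells make on stimulation by growth factors and cytokines, stood at 8.84, 9.12 and 9.31 in YfpCM, 5.84, 4.53 and 5.82 in CMa and 10.51, 10.35 and 10.74 in eCSC. The 3 groups did not overlap. Timp1 was 12.9-fold higher in YfpCM than in CMa (3.69 ± 0.29 SE, adjusted p = 2.81e-07), 35.1-fold lower in CMa than in eCSC (-5.13 ± 0.29 SE, adjusted p = 9.04e-10) and 2.71-fold lower in YfpCM than in eCSC (-1.44 ± 0.29 SE, adjusted p = 0.000469). CMa replicate 2 did not detect this probe; a second Timp1 probe, detected on all 9 arrays, gave means of 8.99 in YfpCM, 5.58 in CMa and 10.36 in eCSC.

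Timp2, which both inhibits Mmp2 and, together with Mmp14, helps to activate it, followed the same order with smaller steps. It stood at 10.25, 9.78 and 10.16 in YfpCM, 8.98, 8.77 and 8.74 in CMa and 11.02, 10.75 and 11.26 in eCSC. It was 2.35-fold higher in YfpCM than in CMa (1.23 ± 0.19 SE, adjusted p = 0.000134), 1.92-fold lower in YfpCM than in eCSC (adjusted p = 0.000422) and 4.52-fold lower in CMa than in eCSC (adjusted p = 9.11e-08). Timp3, the inhibitor bound to the matrix that also blocks Adam17 and aggrecan-cutting ADAMTS enzymes, stood at 10.52, 10.49 and 10.45 in YfpCM, 8.54, 9.18 and 8.87 in CMa and 9.72, 9.86 and 9.62 in eCSC. It was 3.08-fold higher in YfpCM than in CMa (1.62 ± 0.18 SE, adjusted p = 8.24e-06) and 1.83-fold lower in CMa than in eCSC (adjusted p = 0.000542). The higher level in YfpCM than in eCSC (0.75 ± 0.18 SE, adjusted p = 0.00186) rests on the brightest probe: 2 dimmer detected probes had lower means in YfpCM than in eCSC (5.29 against 6.03, and 4.79 against 5.08), the mean of the probes gave -0.09, and the call was also lost with median scaling. Between YfpCM and CMa, 1 of these 2 probes was higher in YfpCM (5.29 against 4.39) and 1 was not (4.79 against 4.89). The call between YfpCM and CMa was kept in all 16 alternatives, at 0.81 to 1.79.

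Timp4, an inhibitor found mainly in heart and a few other tissues, was detected in both cardiomyocyte groups and not in eCSC. It stood at 5.67, 6.97 and 6.51 in YfpCM, 6.67, 7.80 and 7.97 in CMa and 4.33, 4.34 and 4.21 in eCSC, where no array detected it. It was at least 3.11-fold higher in YfpCM than in eCSC (adjusted p = 6.07e-05) and at least 6.66-fold higher in CMa than in eCSC (adjusted p = 6.9e-07). Between YfpCM and CMa the arrays overlapped; the difference of -1.10 ± 0.33 SE (adjusted p = 0.0138) lost its call with median scaling, with no filter on dim probes, and without YfpCM replicate 1 or CMa replicate 2 or 3.

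**Figure D5:**
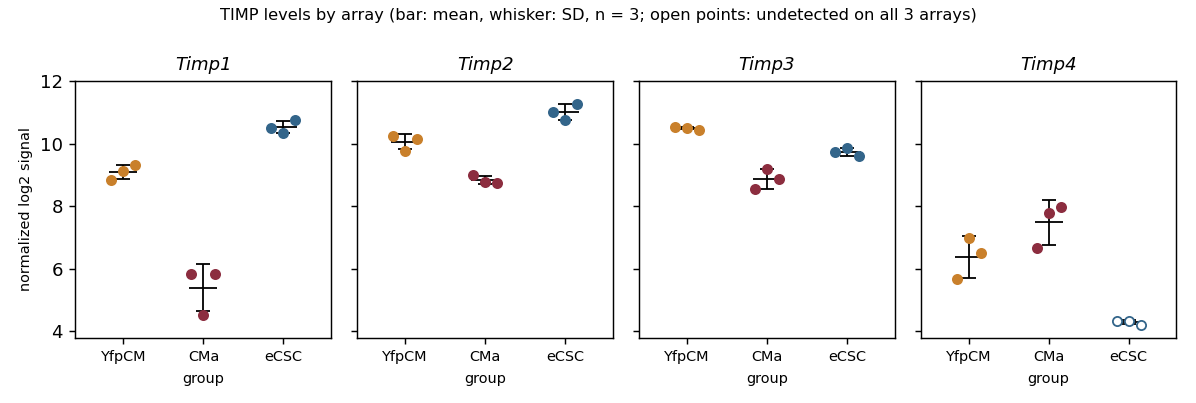
Normalized log2 signal of the 4 Timp genes on each array, with the mean (bar) and SD (whisker) of the 3 arrays of YfpCM, CMa and eCSC; open points mark groups with the probe undetected on all 3 arrays. Timp1 and Timp2 are lowest in CMa and highest in eCSC, Timp3 is highest in YfpCM, and Timp4 is undetected in eCSC and overlaps between YfpCM and CMa.

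Genes that activate, restrain or are cut by these enzymes were followed in 3 lists. Of 37 genes of matrix protease control, which include the plasminogen activators, their receptor and inhibitors, proprotein convertases, cathepsins and the tetraspanins that accompany Adam10, 21 were tested. Between YfpCM and CMa 9 were higher and 5 lower in YfpCM, between YfpCM and eCSC 10 and 6, and between CMa and eCSC 9 higher and 6 lower in CMa. Over all genes tested 50.7%, 73% and 75.3% were called in these comparisons. The list medians were 0.44, 0.44 and 0.20, against -0.08, -0.10 and -0.05 over all genes. The urokinase receptor Plaur averaged 7.46 in YfpCM and 4.58 in CMa, where it was undetected; it was at least 6.06-fold higher in YfpCM (adjusted p = 8.14e-08), and it was at least 14.3-fold lower in CMa than in eCSC (adjusted p = 1.71e-10). Tissue plasminogen activator, Plat, averaged 9.72 in YfpCM, 6.47 in CMa and 5.51 in eCSC and was higher in YfpCM than in CMa by 3.25 ± 0.24 SE (adjusted p = 1.23e-07). Cathepsin K, Ctsk, a collagen-cutting cysteine protease, averaged 8.65 in YfpCM, 5.99 in CMa and 4.56 in eCSC (2.66 ± 0.22 SE between YfpCM and CMa, adjusted p = 4.89e-07). Bmp1, a procollagen C-proteinase, was higher in YfpCM than in CMa by 1.67 ± 0.18 SE (adjusted p = 4.53e-06), and Pcolce, which enhances it, was lower in CMa than in eCSC (-3.71 ± 0.24 SE, adjusted p = 4.13e-09).

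Of 25 proteins whose outer part ADAM sheddases can release, 18 genes were tested. In YfpCM against CMa 13 were higher and 1 lower, in YfpCM against eCSC 5 and 5, and in CMa against eCSC 4 higher and 12 lower; the medians were 0.99, -0.18 and -0.90. Over all genes the shares called higher and lower were 23% and 27.7%, 34.5% and 38.6%, and 35.9% and 39.4% in these comparisons. YfpCM detected 15 genes of this list, CMa 8 and eCSC 13. Many were thus tested only because a group other than CMa detected them, and the counts against CMa restate the filter in part. Notch1 averaged 7.96 in YfpCM and 5.99 in CMa (1.97 ± 0.18 SE, adjusted p = 1.07e-06) and was undetected in eCSC. The hyaluronan receptor Cd44 averaged 8.85 in YfpCM, 6.56 in CMa and 11.34 in eCSC, and differed between YfpCM and CMa by 2.29 ± 0.25 SE (adjusted p = 6.24e-06) and between CMa and eCSC by -4.79 ± 0.25 SE (adjusted p = 3.44e-10). The growth factors Nrg1 and Areg were undetected in CMa and at least 8.05-fold and 7.12-fold lower there than in eCSC.

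Of 15 matrix proteins that ADAMTS enzymes cut or bind, 9 were tested, and 9 of 9 were higher in YfpCM than in CMa, with a median of 2.50. Against eCSC, YfpCM had 6 higher and 2 lower, and CMa had 2 higher and 6 lower, beside the same shares over all genes. YfpCM detected 8 genes of this list, CMa 4 and eCSC 6. Several were thus tested only because a group other than CMa detected them, and the counts against CMa restate the filter in part. Fibronectin, Fn1, averaged 10.57 in YfpCM and 5.57 in CMa (adjusted p = 5.34e-08), and the procollagen Col1a1 averaged 9.75 in YfpCM and 4.82 in CMa (4.92 ± 0.27 SE, adjusted p = 9.61e-09; detected on 1 CMa array). This list shares Col1a1, Col1a2, Col3a1 and Dcn with the fibroblast markers, of which 9 of 10 tested were higher in YfpCM than in CMa with a median of 2.48. Fibroblast markers were thus higher beside Mmp2, Mmp14, Timp1 and 7 of 9 ADAMTS genes in YfpCM than in CMa. Of these ADAMTS genes, Adamts5, Adamts6, Adamts12 and Adamts19 were tested only because YfpCM detected them. YfpCM detected 9 fibroblast markers and CMa 5, so that the count of these markers also restates the filter in part. Also higher in YfpCM than in CMa were 9 of 10 endothelial and 7 of 10 macrophage markers tested. Of the neutrophil, mast cell and mesothelial markers tested, 6 of 6, 5 of 5 and 5 of 5 were higher. Over all genes tested 23% were called higher in YfpCM than in CMa. YfpCM detected 6 neutrophil, 5 mast cell and 5 mesothelial markers, CMa 1, 1 and 0, and eCSC 1, 1 and 1. Most of these were tested only because YfpCM detected them, so that their counts restate the filter in part. Of 7 smooth muscle and pericyte markers, 1 was higher and 2 lower in YfpCM than in CMa, with a median of 0.14. Of 9 cardiomyocyte markers, 0 were higher and 3 lower in YfpCM than in CMa. Mmp15, Mmp23, Adamts7, Adamts9 and Timp4 were detected in YfpCM and CMa and undetected in eCSC. Beside them, 9 of 10 endothelial, 9 of 9 cardiomyocyte, 7 of 7 smooth muscle and pericyte and 9 of 10 macrophage markers were higher in YfpCM than in eCSC. In CMa against eCSC, 10 of 10, 9 of 9, 7 of 7 and 7 of 10 markers of these lists were higher, in the same order. Over all genes tested 34.5% were called higher in YfpCM than in eCSC and 35.9% in CMa than in eCSC. The eCSC arrays detected 1 endothelial, 1 cardiomyocyte, 1 smooth muscle and pericyte and 2 macrophage markers. Most of these markers were thus tested only because another group detected them, and their counts restate the filter in part. Fibroblast markers were higher in 8 and lower in 2 of 10 in YfpCM against eCSC, and higher in 4 and lower in 5 of 10 in CMa against eCSC. In YfpCM against eCSC, 5 of 6 neutrophil and 5 of 5 mast cell markers were higher, and mesothelial markers were higher in 4 and lower in 1 of 5. In CMa against eCSC, neutrophil markers were higher in 1 and lower in 1 of 6. There, 0 of 5 mast cell markers were higher, and mesothelial markers were higher in 0 and lower in 1 of 5. The part of these cell types in the members' differences was not tested.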

How the data were processed

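Total RNA from 9 samples was labelled with biotin and read on Illumina bead arrays, per the labels. Titles gave each array's group and replicate number. The authors deposited 1 intensity per probe and array without normalization or background subtraction. Next to each intensity stands a detection p-value, per the file headers; it rises with the signal, so 1 minus it was used; all values were whole shares of 936 control beads (largest gap 0.00472). Also deposited were intensities summarised by gene, a normalized version of them (not used: 5 of its columns followed another replicate) and a series matrix of values that follow log2 signals in all 9 samples, flattened near background, with column medians from 6.655 to 6.672. Named in the submitters' processing notes are R 2.15.3 and the package lumi 2.10.0; the method is not given in the sources used here.

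Intensities were background corrected with the detection p-values, then quantile normalized after adding 16 and put on the log2 scale (neqc, limma 3.58.1, R 4.3.3; matplotlib 3.10.9 and pandas 2.3.3 under Python 3.11.15 drew the figures). Of 45281 probes, 34885 had 1 symbol, updated through RefSeq for GRCm38.p6, 18 had several and 10378 none. Of the last, 807 were named where all 18 of their values equal those of a single gene in that summary, a match that gave the same symbol for 6877 of 6943 annotated probes; Mmp15, Mmp27, Adam1a, Adam19 and Adamts5 were named so. This step was chosen after the values were seen. Probes detected on all 3 arrays of a group were kept, the brightest standing for its gene (10276 genes). All 9 arrays entered 1 limma model with a mean per group, two-sided. The arrays' number limits the precision. Any member detected in a group could be named, and of each other list the 4 smallest adjusted p-values per comparison. The members and lists were chosen with earlier results of these data known. The test was tested on simulated data. Alternatives were no background correction, median scaling, no filter, probes detected on all 9 arrays, the mean of probes, the series matrix, a replicate block, leaving out each array and a stricter detection limit.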

Additional observations from a re-analysis of the deposited data

How the results depend on the processing

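Of 74 called differences of members, 51 kept direction and call under every alternative that measured them, and 2 turned: Timp3 between YfpCM and eCSC (-0.0900 with the mean of its probes) and Mmp24 between CMa and eCSC (-0.39 with median scaling). The cause was not tested. With median scaling 1 member was lower in YfpCM than in CMa, against 8 as reported. Requiring detection on all 9 arrays left 14 members and, by construction, fewer calls: 7 higher and 4 lower between YfpCM and CMa, 7 and 3 between YfpCM and eCSC, and 5 and 6 between CMa and eCSC. Leaving out 1 array at a time gave 15 to 18 higher and 5 to 8 lower between YfpCM and CMa (5 without YfpCM replicate 1), 17 to 19 and 5 to 6 between YfpCM and eCSC, and 10 to 12 and 8 to 11 between CMa and eCSC; Adamts15 between CMa and eCSC was 0.25 without CMa replicate 1 and 0.76 without CMa replicate 2. The replicate block kept 25 of 26, 23 of 24 and 24 of 24 calls in that order, losing Mmp1a and Adam11; same-numbered arrays deviated with correlations of -0.0656 to 0.12 and share only a number. Sizes depend on the background: of the 74 differences, 54 were smaller by over 1.5 times without its correction and 58 in the series matrix, bright members included. Signals near background limit dim members such as Adam11, Adam20, Adamts6, Adamts15, Mmp16 and Mmp28.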
